A study of Solanum lycopersicum with 10 samples.

Results

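The YABBY family of tomato (Solanum lycopersicum) was followed as 9 loci named by their Solyc identifiers, and all 9 were present among the 35767 loci of the expression table. Their identifiers place 2 of them on chromosome 1, 2 on chromosome 5 and 1 each on chromosomes 6, 7, 8, 11 and 12. Transcripts were counted with a 3' end sequencing kit in 10 libraries of line M82. Root tips were represented by 2 libraries from seedlings moved, 4 days after germination, to plates with 1 µM 2,4-D, an auxin analog, for 3 h, and by 2 mock libraries. Those seedlings grew at 22 °C in continuous light, and their root tips of 1 cm were cut for RNA. Leaf primordia were represented by 3 libraries from greenhouse plants aged 3 weeks that had been sprayed for 3 h with 1 µM picloram, another auxin analog, and by 3 mock libraries. Each leaf sample consisted of 15 primordia of leaf 5, taken at the stage called P5. No label says that libraries of a group came from separate plants, so every p-value below measures only the spread between libraries.

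YABBY proteins are plant transcription factors with a zinc finger and a DNA-binding YABBY domain. In Arabidopsis, members such as FILAMENTOUS FLOWER are expressed on the abaxial (lower) side of young leaves and floral organs, where they act in organ polarity and in outgrowth of the blade, and other members act in carpels, nectaries and ovules. Abaxial identity is set against the adaxial (upper) side, which class III HD-ZIP transcription factors specify, and the auxin response factors ARF3 and ARF4 act on the abaxial side. The RefSeq gene table (SLM_r2.1) has 6 tomato genes with YABBY symbols, 1 each on chromosomes 1, 6, 7, 8, 11 and 12. None of its 41476 rows carries a Solyc identifier, so no symbol or individual role was assigned to a locus here.

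The family divided by level in leaf primordia. Of the 9 loci, 5 had at least 42.8 normalized counts in each of the 6 leaf libraries, and the other 4 never exceeded 6.53. The value of 1 read was about 0.785 to 1.22 normalized counts, depending on the library, and the kit gives 1 fragment per transcript, so levels of different loci were compared without division by length.

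Solyc01g091010 was the most abundant member. It had 470.4, 451 and 446 normalized counts in the picloram libraries, against 449, 578 and 536 in the mock libraries. Its mean over the leaf libraries, 489, was above that of 98.1% of all loci in the table. Solyc08g079100 came next, with 223, 298 and 294 normalized counts under picloram and 236, 215 and 339.5 under mock. Solyc07g008180 had 142, 125 and 207 under picloram and 166, 141 and 205 under mock. For both of these loci the picloram and mock ranges overlapped, and the spread within either group was wider than the distance between the group means.

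Below these, Solyc11g071810 had 42.8, 75.3 and 77.6 normalized counts under picloram and 74.97, 71.1 and 107 under mock. Picloram library 1 was the lowest of the 6 and mock library 3 the highest. Solyc12g009580 had 44.7, 51.4 and 49.5 under picloram and 61.6, 61.8 and 97.6 under mock. It was the only 1 of the 5 loci whose picloram and mock values did not overlap. Of 14410 loci tested in leaf, 15.3% were lower under picloram without overlap and 13.9% higher. Mock library 3 held the highest value for 3 of the 5 loci.

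**Figure D1:**
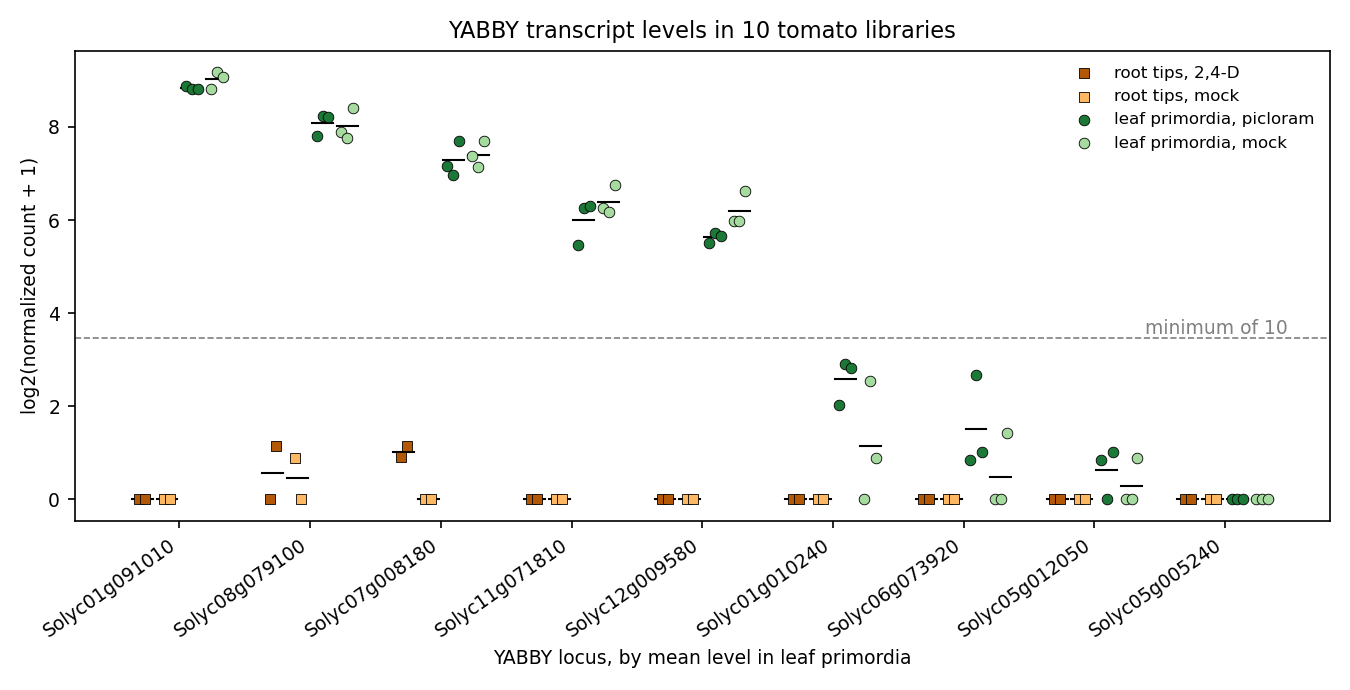
Levels of the 9 YABBY loci as log2(normalized count + 1), ordered by mean level in leaf primordia. Squares are root tip libraries, circles are leaf primordia libraries, short bars are group means and the dashed line marks the minimum of 10; 5 loci lie above the line in every leaf library, and no locus reaches it in a root library.

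The order of the 5 abundant loci was the same in most leaf libraries. Solyc01g091010 was higher than Solyc08g079100 in 6 of 6 leaf libraries, by 1.82-fold between the means. Solyc08g079100 was higher than Solyc07g008180 in 6 of 6, by 1.63-fold, and Solyc07g008180 was higher than Solyc11g071810 in 6 of 6, by 2.20-fold. For these 3 pairs of neighbours the ranges did not overlap within the picloram or the mock group. Solyc11g071810 and Solyc12g009580 could not be ordered beyond their spread, since their ranges overlapped in both groups and the means differed by 1.22-fold, with the first higher in 5 of 6 libraries.

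The other 4 members were at or near 0 in leaf primordia. Solyc01g010240 had 3.09, 6.53 and 6.10 normalized counts in the picloram libraries and 0, 4.84 and 0.838 in the mock libraries. Solyc06g073920 had 0.782, 5.39 and 1.02 under picloram and 0, 0 and 1.66 under mock, and Solyc05g012050 had 0.787, 0 and 1.03 under picloram and 0, 0 and 0.840 under mock. The picloram and mock values of all 3 overlapped, and the highest, 6.53, corresponds to about 6.16 reads. Solyc05g005240 was listed at 0 in all 10 libraries. Solyc01g010240 was above 0 in 5 of 6 leaf libraries, and so was detected at a low level. For Solyc05g012050, which never exceeded about 1 read, and Solyc05g005240 a low level could not be told from absence at this depth.

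In root tips the family was nearly undetected. Of 36 root values (9 loci in 4 libraries), 32 were listed at 0. The exceptions were Solyc07g008180, at 0.868 and 1.21 normalized counts in the 2,4-D libraries and 0 in both mock libraries, and Solyc08g079100, at 0 and 1.22 in the 2,4-D libraries and 0.855 and 0 in the mock libraries. Each of these 4 values was worth about 1 read. The summed family signal was 0.868 and 2.43 normalized counts in the 2,4-D libraries and 0.855 and 0 in the mock libraries.

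Because no member reached 10 normalized counts in at least 2 root libraries, the minimum set for testing, 0 of 9 members were tested for the response to 2,4-D or for the difference between the root and leaf responses. Across the table, limma's moderated linear model on log2(value + 1) called 4.55% of 12664 loci for 2,4-D against mock and 3.76% of 11313 for the difference, at a Benjamini-Hochberg adjusted p under 0.05. Without any minimum, 8 members entered the root comparison and 0 were called by limma, beside 619 of 25834 loci over the table. The member with the smallest p was Solyc07g008180 (limma, unadjusted p = 0.00834, adjusted p = 0.154), which rests on about 1 read in each 2,4-D library. A root response of the family could not be measured at these levels.

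Mock root tips were set against mock leaf primordia to describe where the family is expressed. The 5 abundant members were all called lower in mock root tips (limma, adjusted p from 2.54e-10 for Solyc01g091010 to 5.93e-08 for Solyc11g071810), where 29.8% of 15761 tested loci were called lower. All 5 were tested only because of their level in leaf, an entry that favours a lower value in root: of the 3097 loci that reached the minimum in leaf and not in root, 78.1% were called lower. Since 4 of the 5 were listed at 0 in both mock root libraries, and Solyc08g079100 in 1 of them, no fold difference is given. With equal library totals, which moved the median difference of all tested loci by -0.53 on the log2 scale, 32.2% of the calls over the table were higher in root in place of 52.4%, and the 5 members were again called lower.

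The root values of the 5 can also be read against loci of like leaf level. Among 5824 other loci with a leaf mean of at least 61.1 normalized counts, the level of the lowest of the 5, 1.63% had no root library above 1.22, the highest root value of any member, whereas 5 of 5 members met this description. All 4 root libraries were listed at 0 for 3 of the 5 members, Solyc01g091010, Solyc11g071810 and Solyc12g009580, and for 53 of the other loci (0.91%). These limits were taken from the members' own values, so the shares are a description and carry no test. In bulk tissue, fewer cells of a type and less RNA per cell cannot be told apart.

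**Figure D2:**
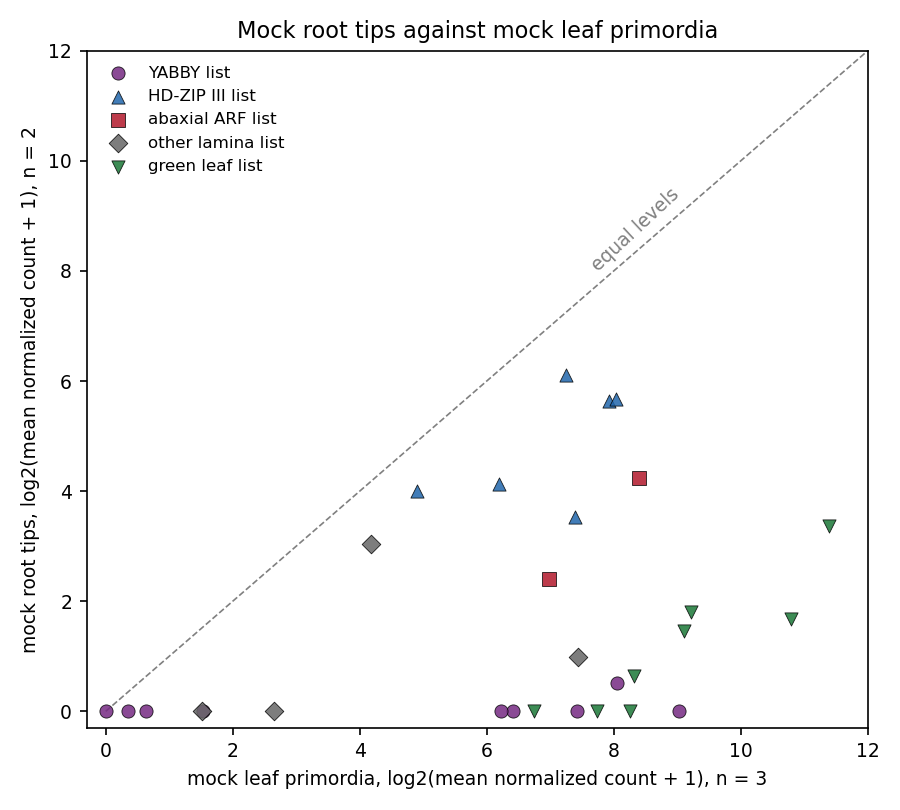
Mean level in mock root tips (vertical, n = 2) against mock leaf primordia (horizontal, n = 3), both as log2(mean normalized count + 1), for YABBY loci and the other gene lists. The abundant YABBY loci lie along the floor of the plot, with 4 of 5 at 0 in root, while the HD-ZIP III loci keep measurable root levels. Solyc09g010840 of the lamina list also lies near the floor, with a mock root mean of 0.985 normalized counts.

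Whether auxin shifted the family in leaf primordia was examined by comparing picloram with mock. Of the 9 members 5 were tested and 0 were called, where 10.2% of 14410 tested loci were called (4.89% higher and 5.26% lower). Of the 5 fold changes 4 were below 0, and their median was -0.19 on the log2(value + 1) scale, against 0.00217 over all tested loci. Unadjusted, 0 of the 5 had p under 0.05, against 3593 of all tested loci. With equal library totals 61.5% of the calls over the table were higher under picloram, in place of 48.2%, and 0 members were called.

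The largest of the 5 fold changes in size was that of Solyc12g009580. Its level averaged 48.5 ± 3.44 normalized counts under picloram and 73.7 ± 20.8 under mock (SD, n = 3 each), a log2 fold change of -0.56 ± 0.31 (SE, limma adjusted p = 0.288), with a 95% interval of -1.23 to 0.11. Lower values without overlap were found for 15.3% of all tested loci. Without mock library 3 the fold change was -0.34. Solyc11g071810 averaged 65.3 ± 19.5 under picloram and 84.3 ± 19.7 under mock (SD, n = 3 each), a log2 fold change of -0.39 ± 0.33 (SE, limma adjusted p = 0.521, interval -1.11 to 0.33). Its value was -0.12 without picloram library 1, the lowest library for this locus.

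The 3 most abundant members had smaller fold changes. Solyc01g091010 averaged 456 ± 12.7 normalized counts under picloram and 521 ± 65.8 under mock (SD, n = 3 each), a log2 fold change of -0.19 ± 0.18 (SE, limma adjusted p = 0.596). Its 95% interval, -0.59 to 0.22, was the narrowest of the 5. Solyc07g008180 had a log2 fold change of -0.13 ± 0.27 (SE, limma adjusted p = 0.828, interval -0.72 to 0.47). Solyc08g079100 had 0.06 ± 0.34 (SE, limma adjusted p = 0.941, interval -0.69 to 0.81), the only value above 0. The sign of these last 2 changed when single leaf libraries were left out. The intervals of Solyc12g009580 and Solyc11g071810 extend past a 2-fold lower level, and those of the other 3 stop short of a 2-fold change in either direction.

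**Figure D3:**
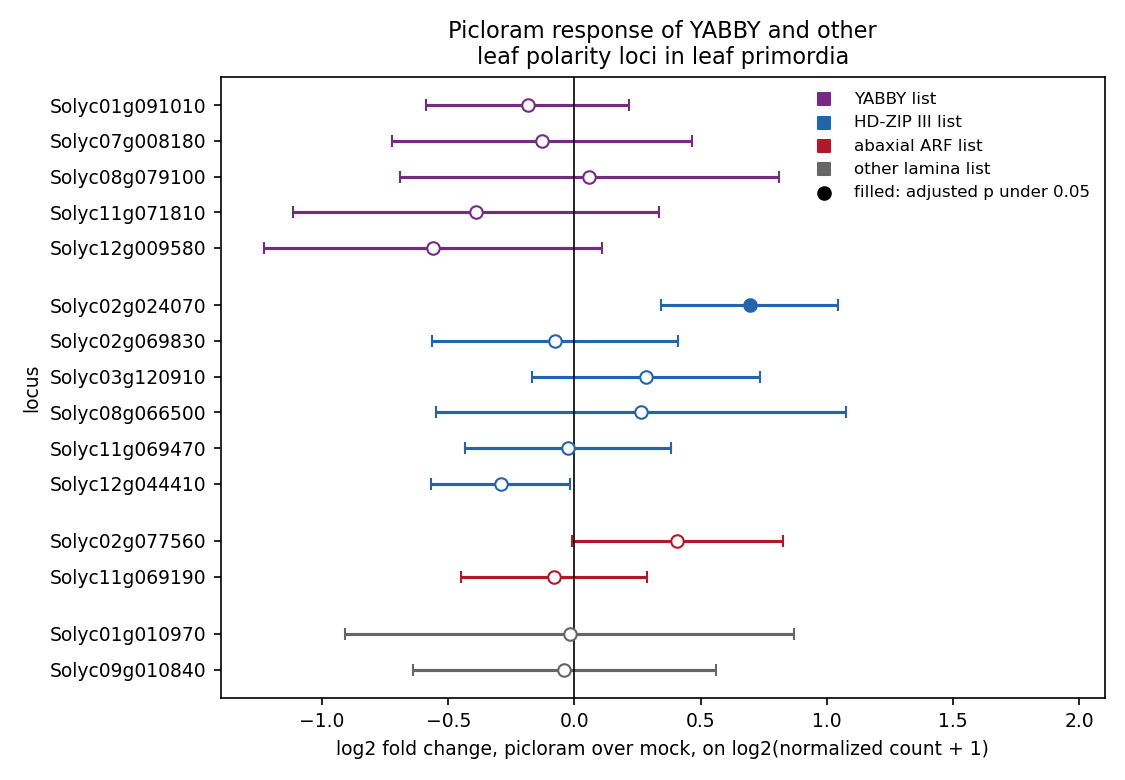
Log2 fold change of picloram over mock in leaf primordia on the log2(normalized count + 1) scale, with limma 95% intervals, for the 5 tested YABBY loci and loci of 3 other lists. All 5 YABBY intervals span 0, and the 1 filled point, Solyc02g024070 of the HD-ZIP III list, is the only locus shown that was called.

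Without a minimum on low values, the low members could also be fitted in leaf. Solyc01g010240 then had a log2 fold change of 1.45 ± 0.58 (SE, limma adjusted p = 0.205, unadjusted p = 0.0274), Solyc06g073920 of 1.04 ± 0.53 (SE, limma adjusted p = 0.335) and Solyc05g012050 of 0.33 ± 0.36 (SE, limma adjusted p = 0.691). All 3 values were above 0, yet each rests on a handful of reads and none was called. In that fit 1247 of 25834 loci were called over the table, so 0 calls among so few loci says little about them.

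The summed signal of all 9 loci was 928, 1013 and 1083 normalized counts in the picloram libraries and 988, 1072 and 1289 in the mock libraries. The means of the sum were 1008 ± 77.6 under picloram and 1117 ± 155 under mock (SD, n = 3 each), with overlapping ranges. Their distance was larger than the picloram SD and smaller than the mock SD. As parts per 1000000 of the library's normalized counts the sum was 541 ± 49.1 under picloram and 565 ± 88.6 under mock (SD, n = 3 each). In those parts the distance was smaller than either SD. The shares of the 4 most abundant loci in the sum overlapped between the groups. Solyc01g091010 supplied 45.5 ± 4.81% under picloram and 47.0 ± 6.32% under mock, and Solyc08g079100 supplied 26.9 ± 2.71% under picloram and 23.5 ± 3.15% under mock (SD, n = 3 each). Solyc07g008180 supplied 15.6 ± 3.40% under picloram and 15.3 ± 1.93% under mock. Solyc11g071810 gave 6.41 ± 1.56% under picloram and 7.51 ± 0.838% under mock. The share of Solyc12g009580 was 4.57% to 5.07% in the picloram libraries and 5.76% to 7.57% in the mock libraries, without overlap. The 4 low members together made up 0.502% to 1.18% of the sum under picloram and 0% to 0.452% under mock. These shares did not overlap either, in the opposite direction, and rest on a handful of reads. By level, 15.3% of all tested loci were lower under picloram without overlap and 13.9% higher.

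**Figure D4:**
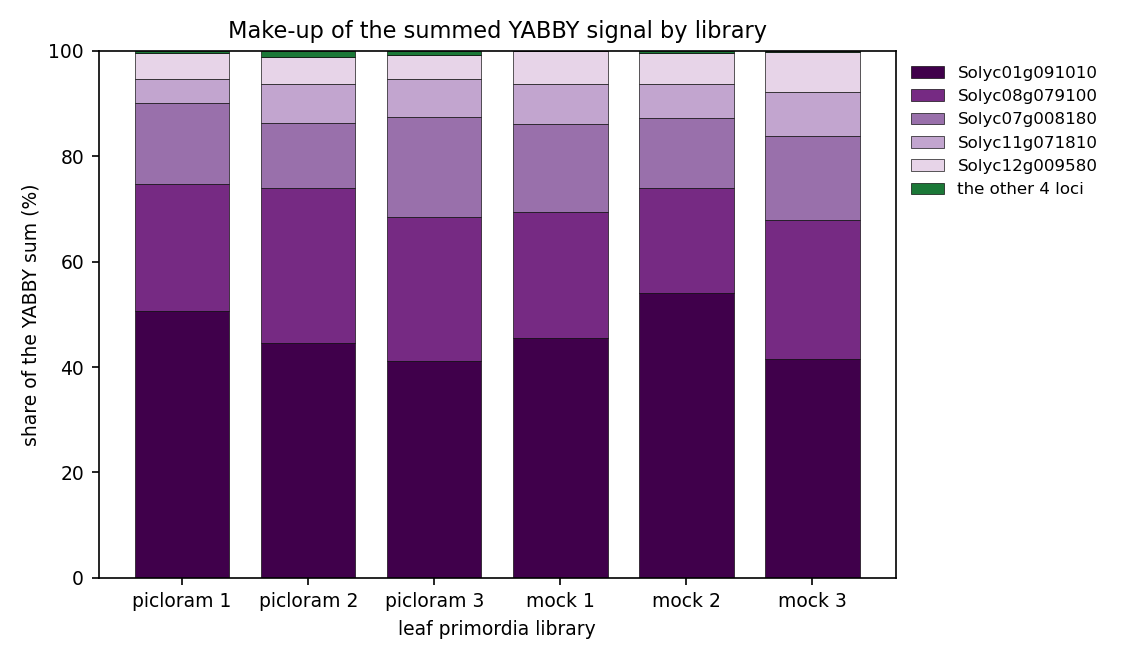
Share of the summed YABBY signal (%) held by each locus in the 3 picloram and 3 mock leaf primordia libraries. Solyc01g091010 holds 41.2% to 54.0% of the sum in each bar, and the other 4 loci at the top hold at most 1.18%.

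The ratio of the 2 most abundant members varied between libraries. Solyc01g091010 stood at 2.11, 1.51 and 1.52 times Solyc08g079100 in the picloram libraries and at 1.899, 2.68 and 1.58 times in the mock libraries. The highest ratio, in mock library 2, combined the highest Solyc01g091010 value of all with the lowest Solyc08g079100 value.

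Other genes of leaf polarity were followed as lists of identifiers recalled from the literature, which the files do not annotate. Of the HD-ZIP III list, which marks the opposite, adaxial side, 6 of 6 loci were tested in leaf, 1 rose under picloram and 0 fell. Over all tested loci 4.89% rose and 5.26% fell. Solyc02g024070 had 274, 256 and 276 normalized counts under picloram and 183, 139.5 and 178 under mock, a log2 fold change of 0.69 ± 0.16 (SE, limma adjusted p = 0.0181). The groups did not overlap, as was so with higher values under picloram for 13.9% of all tested loci. The call ended without mock library 2 or any 1 of the 3 picloram libraries (log2 fold change 0.57 to 0.77 and adjusted p 0.0210 to 0.0728 over omissions of 1 leaf library). The most abundant locus of the list, Solyc03g120910, had a log2 fold change of 0.28 ± 0.21 (SE, limma adjusted p = 0.446). Of the 6 fold changes 3 were below 0, against 49.8% over all tested loci, and the list's median was 0.12. Among these was Solyc12g044410, named after its values were seen. It had 242, 200.2 and 200.4 normalized counts under picloram and 273, 263 and 248 under mock, without overlap. Lower values without overlap were found for 15.3% of all tested loci. The log2 fold change of Solyc12g044410 was -0.29 ± 0.13 (SE, limma adjusted p = 0.174, interval -0.57 to -0.017).

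Of the list of 2 abaxial ARF loci, 0 were called under picloram, beside 10.2% of all tested loci. The more abundant, Solyc11g069190, had 314, 322 and 306 normalized counts under picloram and 388, 261 and 362 under mock, a log2 fold change of -0.08 ± 0.17 (SE, limma adjusted p = 0.821), with a sign that turned with equal library totals. The other, Solyc02g077560, named after its values were seen, had 169, 158 and 171 under picloram and 129, 129 and 117 under mock. Its groups did not overlap, as was so with higher values under picloram for 13.9% of all tested loci, and its log2 fold change was 0.41 ± 0.19 (SE, limma adjusted p = 0.211). Of a list of 4 other loci of lamina growth and polarity, 2 were tested and 0 were called, beside the same 10.2%. The more abundant, Solyc09g010840, had -0.04 ± 0.27 (SE, limma adjusted p = 0.949), again with a sign that turned with equal library totals. In root tips 0 of the 8 tested loci of these 3 lists were called under 2,4-D, beside 4.55% of 12664 tested loci. Solyc11g069190 came nearest, at 29.8 and 32.9 normalized counts on 2,4-D and 15.4 and 20.3 under mock, a log2 fold change of 0.79 ± 0.21 (SE, limma adjusted p = 0.0539). It passed the threshold only where mock leaf library 1 or 2, which enter the shared spread, was left out (adjusted p = 0.0437 and 0.0269).

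The HD-ZIP III and ARF lists had measurable root levels. Summed over its 6 loci, the HD-ZIP III list held 191 to 233 normalized counts in the 2,4-D libraries and 208 to 209 in the mock root libraries, and the ARF list held 38.2 to 41.4 on 2,4-D and 20.6 to 23.6 under mock. The YABBY sum was at most 2.43. The lamina list held 17.1 to 25.0 on 2,4-D and 7.84 to 8.49 under mock, mostly from Solyc01g010970. Its locus Solyc09g010840, with a leaf mean of 167, had 0 in both 2,4-D libraries and 0.854 and 1.12 in mock. Solyc03g118770 and Solyc07g062680, both low in leaf, were listed at 0 in all 4 root libraries. A near absence from root was thus not particular to the YABBY loci. Mock root tips were called lower than mock leaf primordia for 5 of 6 HD-ZIP III loci, 2 of 2 ARF loci and 2 of 2 tested lamina loci, beside 29.8% of all tested loci. Of these, Solyc02g077560 of the ARF list and Solyc09g010840 of the lamina list reached the minimum in leaf only, where 78.1% of such loci were called lower, so their calls add little. Whether these differences were smaller than those of the YABBY loci was not tested.

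Other loci followed the profile of the most abundant member closely. Over all 10 libraries, the 2 loci most like Solyc01g091010 by Pearson's r of log2(value + 1) were Solyc03g114560 (r = 0.9997) and Solyc09g014970 (r = 0.9995), both listed at 0 in all root libraries, with leaf means of 255 and 56.6 normalized counts. That likeness mostly reflects the division between tissues, which 1613 of 14405 loci shared at r above 0.95. Over the 6 leaf libraries alone, the 2 loci most like it were Solyc03g121260 (r = 0.997) and Solyc02g089175 (r = 0.995), which reached 28.8 and 202 normalized counts in root. These coefficients describe the highest among 14405 loci and share libraries and scaling.

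The tissue labels were set beside marker loci recalled from the literature. A list of 9 Rubisco small-subunit and light-harvesting loci summed to 6603 to 8689.7 normalized counts under picloram and 12239.5 to 13238 in mock leaf primordia. In root tips it summed to 9.40 in library 1 and 79.4 in library 2 on 2,4-D, and to 14.7 and 71.0 in mock. In either root group 3 of 9 loci were at 0. The cause of the difference between root libraries 1 and 2 was not tested. In leaf this list moved with picloram: 4 of 9 loci fell, beside 5.26% of all tested loci. Of its fold changes 9 of 9 were below 0, beside 49.8% over all tested loci. Their median was -1.23, against 0.00217 over all tested loci. The part of this list in the YABBY values was not tested. Of 4 shoot meristem loci, Solyc02g083950 was listed at 0 in all leaf libraries and Solyc11g071380 in all but picloram library 3, where it had 1.03 normalized counts. The other 2 were low in both tissues: Solyc04g077210 had 6.43 to 16.4 under picloram and 7.17 to 8.06 in mock leaf primordia, and 3.46 and 12.3 on 2,4-D and 2.53 and 9.99 in mock root tips, while Solyc02g081120 reached at most 10.9 in leaf and 5.61 in root. The list summed to 9.66 to 18.0 under picloram and 10.3 to 18.1 in mock leaf primordia. In root tips it summed to 3.46 in library 1 and 16.0 in library 2 on 2,4-D, and to 3.38 and 15.6 in mock. The sum of this list thus did not separate the tissues. The 1 root stem cell locus, Solyc06g076000, was listed at 0 in all 4 root libraries, so it did not mark the root tips here.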

How the data were processed

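The authors deposited 1 table of normalized counts per locus, a non-negative signal with 1 column per library. Per the submitters' processing notes, the tools included Salmon 0.8.2 and DESeq2, but their roles, the scaling, the annotation and its build are not stated there. A root library summed to 2.83 to 2.96 M normalized counts and a leaf library to 1.83 to 2.06 M, which at the value of 1 read corresponds to about 2.32 to 3.47 M and 1.69 to 2.39 M reads. Low values (up to 20 reads) were whole within 0.1 read for only 58.4% to 83.4%, so read counts were not recovered and no count model was run.

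Groups and numbers came from sample titles. All 10 libraries entered 1 limma 3.58.1 model (R 4.3.3) with a mean-variance trend on log2(value + 1), with 1 mean per group, 6 residual degrees of freedom and 5.55 from the prior. On this scale the fold changes of low loci are understated. Testing was limited to loci for which at least 2 libraries of the tissue reached 10 (both tissues for the difference of responses, either for the tissue comparison). P-values were 2-sided and adjusted over all tested loci. The model was tested on simulated data. Intervals are limma's 95% intervals.

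The members, gene lists and tests were chosen with earlier results of these data known. All 9 members are named, with the called and the most abundant locus of each polarity list and the 2 loci of highest likeness. Alternatives were other pseudocounts (0.5 and 5), minimums (none, 5 and 20), scalings (equal totals, quantile), a fit of the compared groups only, a replicate block and omission of each library.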

Additional observations from a re-analysis of the deposited data

How the results depend on the processing

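In leaf, 0 YABBY loci were called under picloram in all 19 alternatives, where 876 to 1881 loci were called over the table. In mock root tips 5 were called lower in all 19, where 8113 to 10654 loci were called in either direction. Their entry through leaf level favours this outcome. In the main fit, 78.1% of the 3097 loci that reached the minimum in leaf only were called lower. For the 2,4-D response 0 members were called in 19, and for the difference of responses 0 in 18. None was tested in any of them except where no minimum was set. Single fold changes under picloram ranged, when 1 library was left out, from -0.29 to -0.11 for Solyc01g091010, from -0.54 to -0.12 for Solyc11g071810 and from -0.67 to -0.34 for Solyc12g009580. They turned in sign for Solyc08g079100 (-0.072 to 0.25), Solyc07g008180 (-0.34 to 0.024), Solyc11g069190 (-0.25 to 0.030) and Solyc09g010840 (-0.24 to 0.21). The last 2 also turned with equal library totals, to 0.0052 and 0.046, where the median of all tested loci moved by 0.084. The cause was not tested. Whether same-numbered libraries pair was not settled. Their deviations correlated at 0.1004 in root, and at 0.0956, 0.00567 and 0.00188 in leaf, where not every library was closest to its own number. With 2 libraries per root group, the crossed value is fixed at -0.1004. Some root loci followed the number: Solyc03g034220 had 5.22 and 4.23 normalized counts in 2,4-D and mock library 1, and 47.8 and 48.8 in library 2. Others did not: Solyc11g069470 had 56.6 and 78.5 in library 1, and 80.6 and 58.2 in library 2. With the replicate block, 0 YABBY loci were called in leaf and 5 lower in mock root. Loci called over the table then numbered 519 of 12664 in root, 1391 of 14410 in leaf and 9885 of 15761 between mock tissues. Over the table, 576 root calls became 1141 with root fitted alone, 357 after quantile normalization, and 90, 100, 248 and 351 without 2,4-D library 1 or 2 or mock library 1 or 2. The 1463 leaf calls became 962, 876 and 949 without picloram library 1, 2 or 3 and 972 without mock library 2. The 425 calls for the difference became 167 to 217 without 1 root library. About 1.7 to 2.4 M reads per leaf library limit what can be said of loci near 1 read.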
